A study of Mus musculus with 16 samples.

Results

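The Fos and Jun families are the leucine zipper proteins that pair to form AP-1, a transcription factor that binds DNA at the TPA response element (TRE) and the cAMP response element (CRE). Fos proteins pair only with other partners, mainly Jun proteins, whereas Jun proteins also pair among themselves, so the relative amounts of the members set which dimers can form. *Fos*, *Fosb*, *Jun* and *Junb* are immediate early genes, switched on within minutes of a stimulus through MAP kinase signaling, while *Jund* is steadily expressed in most tissues. In kidney and liver, AP-1 takes part in responses to stress, injury and inflammation. The members were taken by name: *Fos*, *Fosb*, *Fosl1* and *Fosl2* form the Fos group, and *Jun*, *Junb* and *Jund* form the Jun group. These are 7 of the 24984 genes in the count tables, and every one of them was listed in all 16 libraries.

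RNA-seq had been performed on the kidney and liver of wild-type C57BL/6 mice labelled as 24 months old. Per the study's methods the mice were female and received AAV8, an adeno-associated virus, through the tail vein when 24 months old. Tissues were taken 3 months later, so the labelled age matches the age at injection rather than at collection. The cargo of the virus was a short hairpin RNA that targets *Fos* (shFos group) or a non-targeting hairpin (NT group). The NT mice were thus virus-treated and aged as well. There were 4 libraries per tissue and treatment, numbered 1 to 4. The promoter that drove the hairpin and the cells the virus reached were not given in the sources used here, and no uninjected or young animals were analysed here. Because whole tissue was sequenced, fewer cells of a type and less RNA per cell cannot be told apart. The labels give replicate numbers without naming animals or cultures, so p-values measure the spread between these libraries.

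Libraries held 14194543 to 15534665 reads on genes in the kidney and 16652150 to 18300277 in the liver. Values are given as CPM, the counts of a gene relative to all reads on genes in its library, with TMM scaling among the libraries of a tissue, and levels of different genes are compared only per kilobase of exon. A gene without reads could hold up to 3 counts, which is 0.164 to 0.211 CPM depending on the library. Marker genes were those of the labelled tissues: 6 kidney tubule markers summed to 9570 to 15800 CPM in the kidneys and 0.75 to 2.17 CPM in the livers, while 6 hepatocyte markers summed to 41900 to 186000 CPM in the livers and 96.1 to 304 CPM in the kidneys. Liver NT replicate 4 stood apart. It had the lowest hepatocyte sum, 41900 CPM against 110000 or more in the other livers, the highest neutrophil sum (108 CPM, others at most 37.6), and an acute-phase sum of 107000 CPM (others 15300 to 22600). Kidney NT replicate 4 had the highest neutrophil and acute-phase sums of its tissue, 30.4 and 572 CPM, and the lowest lymphocyte sum, 12.9 CPM. Member fold changes that rest on these libraries are given with and without them.

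In the mm10 genome with GENCODE M21 gene models, *Fos* (ENSMUSG00000021250.13) lies at chr12:85473890-85477273 on the plus strand, *Fosb* (ENSMUSG00000003545.3) at chr7:19302696-19310051 on the minus strand, *Fosl1* (ENSMUSG00000024912.6) at chr19:5447547-5455946 on the plus strand and *Fosl2* (ENSMUSG00000029135.10) at chr5:32135801-32157842 on the plus strand. Each of these has 4 exons in its longest transcript. *Jun* (ENSMUSG00000052684.4) at chr4:95049034-95052222 on the minus strand, *Junb* (ENSMUSG00000052837.6) at chr8:84974484-84978718 on the minus strand and *Jund* (ENSMUSG00000071076.6) at chr8:70698949-70700616 on the plus strand are single-exon genes. The exons of *Junb* and *Jund* are among the most GC-rich of all, with 62.6% and 67.1% G or C, above 98.2% and 99.6% of the genes matched. Those of *Fos* hold 51.9%. *Junb* overlaps an exon of *Prdx2* and *Fosl1* overlaps *Ccdc85b*, each on the opposite strand. Reads were counted without strand, so those of the overlap cannot be assigned. Exons of *Jun* and *Jund* overlap the antisense genes *Junos* and *Gm11175*, which were not in the count tables. Reads from these could therefore be counted as *Jun* or *Jund*.

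*Fos*, *Fosb* and *Junb* were lower without overlap in the shFos kidneys, as were 8.04% of all genes tested there, and *Jun* was not. The promoters of these 4 members, picked by those values, are shown. Each is the 150 bases before the RefSeq transcription start (GRCm38.p6), printed 5′ to 3′ on the gene's strand, and capitals mark a match to TGACG, the core of the CRE, or to TGANNTCA, an 8-base form that holds variant TRE and CRE sites. *Fos* spans chr12:85473740-85473889 (plus strand), *Fosb* chr7:19310046-19310195 (minus), *Junb* chr8:84978749-84978898 (minus) and *Jun* chr4:95052223-95052372 (minus).
Fos: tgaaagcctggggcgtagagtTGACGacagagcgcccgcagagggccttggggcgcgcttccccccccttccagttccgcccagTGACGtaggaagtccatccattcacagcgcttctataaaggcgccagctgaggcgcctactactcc
Fosb: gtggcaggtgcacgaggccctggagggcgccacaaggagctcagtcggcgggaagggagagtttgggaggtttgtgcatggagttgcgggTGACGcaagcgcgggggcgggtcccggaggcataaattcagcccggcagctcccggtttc
Junb: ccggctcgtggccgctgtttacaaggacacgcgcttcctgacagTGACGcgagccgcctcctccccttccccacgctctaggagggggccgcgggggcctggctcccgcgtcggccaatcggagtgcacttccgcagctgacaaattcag
Jun: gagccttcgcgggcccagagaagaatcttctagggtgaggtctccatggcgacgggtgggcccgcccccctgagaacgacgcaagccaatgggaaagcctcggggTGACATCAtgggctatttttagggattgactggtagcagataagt
TGACG was searched on both strands and occurs 129 and 66 bases before the *Fos* start, 60 bases before that of *Fosb* and 106 bases before that of *Junb*. Of 32851 RefSeq promoter windows of this length, 13.3% hold it. *Jun* has the 8-base form TGACATCA 45 bases before its start. *Jund*, not printed, has TGAAATCA 61 bases before its RefSeq start and no TGACG. It was also lower in the shFos kidneys, with overlap (log2 -0.36, adjusted p = 0.0833 from edgeR, 0.0307 from DESeq2). The *Jund* window, chr8:70697589-70697738 with 45.3% G or C, lies upstream of the GENCODE start at 70698949 and does not adjoin it. The 8-base form matches 8.37% of windows, and a full CRE, in which TGACG is followed by TCA, would match both searches. The 7-base TRE, TGANTCA, is in 4.24% of windows and in none of the 6 members with an entry (*Fosl1* has none). These matches describe the letters in the window only. A link between them and the kidney values, by which the printed members were picked, was not tested.

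*Fos*, the target of the hairpin, was a low-abundance transcript. It had 65 to 102 reads per NT kidney and 30 to 62 per shFos kidney. The NT kidneys measured 6.71, 5.26, 4.23 and 5.29 CPM (mean 5.37 ± 1.02, SD, n = 4) and the shFos kidneys 2.57, 4.12, 3.93 and 2.30 CPM (3.23 ± 0.929). The groups did not overlap, although the lowest NT kidney, at 4.23 CPM, was next to the highest shFos kidney, at 4.12. The log2 fold change was -0.73 (SE 0.25) and the adjusted p was 0.0947 with edgeR's quasi-likelihood model over all genes and 0.0421 with DESeq2.

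In the liver, *Fos* measured 1.12, 2.37, 3.70 and 2.86 CPM in the NT libraries (2.51 ± 1.08) and 1.63, 1.5, 2.76 and 1.38 CPM in the shFos libraries (1.82 ± 0.637). The groups overlapped, and NT replicate 1, with 17 reads, was the lowest of all 8 livers. Its log2 fold change stood at -0.47 (SE 0.38, adjusted p = 0.775 from edgeR), and leaving out 1 library moved it to -0.72 (NT replicate 1), -0.23 (NT replicate 3) or -0.75 (shFos replicate 3). The counts of *Fos* therefore separate the labelled groups in the kidney but not in the liver.

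Among the members, *Jund* was the most abundant in every group. In the NT kidneys, the mean level per kilobase of exon was 115 CPM per kb for *Jund*, 23.3 for *Junb*, 16.9 for *Jun*, 3.81 for *Fosl2*, 2.28 for *Fos*, 0.264 for *Fosb* and 0.0404 for *Fosl1*. No neighbours in that order overlapped between NT kidneys, though *Fos* (up to 2.85) and *Fosl2* (from 2.89) nearly met. The NT livers had the same order, at 55.5, 20.0, 5.30, 1.61, 1.07, 0.0578 and 0.00709 CPM per kb. There *Fosl2* (1.11 to 2.78) and *Fos* (0.477 to 1.57) overlapped, as did *Fosb* and *Fosl1*. The shFos livers kept the order, with *Fosl2* and *Fos* again overlapping, at means of 1.18 and 0.772. In the shFos kidneys, *Jun* (16.9 CPM per kb) and *Junb* (15.9) had traded places, and their libraries overlapped. That order depends on the length used: the mean log2 ratio of *Jun* to *Junb* in the shFos kidneys was 0.0956 with merged exons but -0.251 with the longest transcript. *Fosl1*, which encodes FRA1, had 0 to 2 reads in each of the 16 libraries, within the 3 counts that a count of 0 allows, so neither its presence nor its absence could be established. *Fosb* was nearly as sparse in the liver, with 1 to 12 reads.

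**Figure D1:**
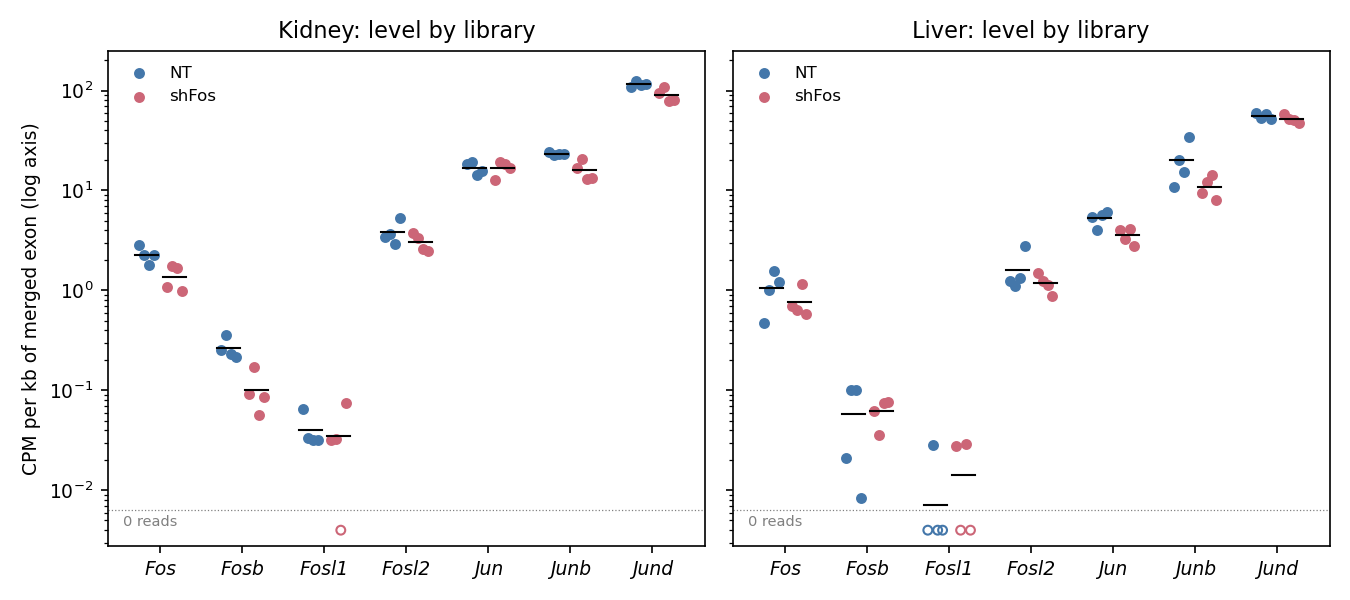
Level of each member in every library (CPM per kilobase of exon, log axis) in kidney and liver, with NT libraries in blue, shFos libraries in red, black bars for group means and open circles for libraries with 0 reads. *Jund* is highest in both tissues, and *Fos*, *Fosb* and *Junb* separate by treatment in the kidney only.

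To describe the balance of the family without any scaling between libraries, each member's reads per kilobase were expressed as a percent of the sum over the 7 members in the same library. *Jund* took 71.2 ± 1.9% of the family in the NT kidneys (SD, n = 4), and *Junb* took 14.4 ± 1.06%. *Jun* took 10.4 ± 1.22%, *Fosl2* 2.35 ± 0.617% and *Fos* 1.41 ± 0.285%. The Fos group as a whole made up 3.95 ± 0.697% of the family in the NT kidneys and 3.23 ± 0.849% in the NT livers, and the libraries of both tissues overlapped. No p is given for shares, which are composites over the members.

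The kidney and liver differed mainly within the Jun group. The *Jun* share was 11.9, 11.0, 9.25 and 9.62% in the NT kidneys and 7.05, 5.09, 6.94 and 6.31% in the NT livers. Every kidney, NT or shFos, was above every liver. The *Junb* share was 15.4, 13, 14.9 and 14.3% in the NT kidneys but 14, 25.3, 18.5 and 35.5% in the NT livers. *Junb* was thus nearly constant in one tissue and spread widely in the other, with liver NT replicates 4 and 2 highest and replicate 1 inside the kidney range. The *Jund* share was 76.7, 66.8, 70.9 and 54.0% in the NT livers, in the opposite order to that of *Junb*. Both belong to 1 total, so these shares are not independent.

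**Figure D2:**
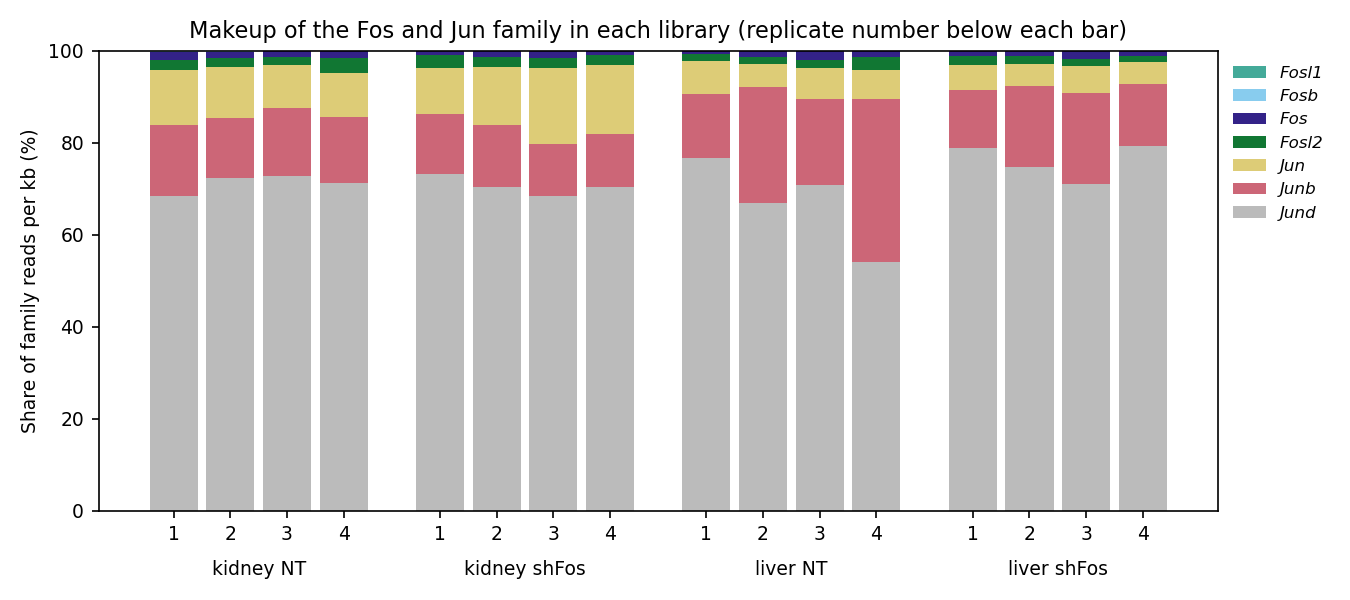
Stacked bars give the share of each member (percent of family reads per kilobase of exon) in each of the 16 libraries. *Jund* fills 54.0 to 79.3% of every bar, the *Jun* band is wider in each kidney than in any liver, and the *Junb* band is widest in liver NT replicate 4.

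The ratio of *Jun* to *Junb* within a library gave the same separation of the tissues. On the log2 scale it was -0.382, -0.235, -0.689 and -0.57 in the NT kidneys and -0.99, -2.31, -1.42 and -2.49 in the NT livers. Each kidney of either treatment was above each liver, the lowest kidney being at -0.689 and the highest liver at -0.99. JUN is a strong activator of growth genes, whereas JUNB is known to restrain JUN at many of the same sites. Fitted to TMM-scaled counts, *Jun* was higher in NT kidneys than in NT livers by 0.69 on the log2 scale (SE 0.15, adjusted p = 0.00378 from edgeR). It was one of 8936 of 14875 genes called between the tissues (60.1%), and its groups did not overlap, as was the case for 56.7% of genes. The *Jun* difference ranged from 0.44 to 1.72 over all the alternatives and was called in each. *Fosb* did not overlap between the tissues either (log2 1.17, SE 0.58, adjusted p = 0.112 from edgeR).

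*Junb* was lower in the NT kidneys than in the NT livers by edgeR's estimate, with a log2 difference of -0.77 (SE 0.31) that did not pass at an adjusted p of 0.0536. It passed in a fit of all 16 libraries (adjusted p = 0.0216), with DESeq2 (0.0277), with GC content corrected (log2 -1.32, adjusted p = 0.00333) or GC content and length (-1.23, adjusted p = 0.00508), and without liver NT replicate 3 (-0.91, adjusted p = 0.04) or 1 (-1.0, adjusted p = 0.00791), but was -0.42 without liver NT replicate 4 (adjusted p = 0.0804) and reversed to 0.25 when libraries were scaled by their size only. With that scaling the median of all genes shifted by 1.08 (0.041 with TMM) and the called genes split into 10938 higher and 1358 lower in the kidney, against 4809 and 4127 with TMM and 5644 and 3241 with upper-quartile scaling. The same scaling by size put *Fos* at 1.11, *Jund* at 1.11, *Fosl2* at 1.28 and *Fosb* at 2.19, each called and none below that shift. *Fos*, *Fosl2* and *Jund* gave differences of 0.10, 0.25 and 0.07 with adjusted p of 0.822, 0.519 and 0.565 from edgeR. *Fos* turned to -0.07 and *Jund* to -0.72 (called, adjusted p = 0.000393) after a GC content correction, and *Fosl2* turned to -0.05 with GC content and length corrected together. Without liver NT replicate 4, *Fosl2* was higher in the kidney by 0.62 (adjusted p = 0.0267 from edgeR).

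To ask how the rest of the family stood when *Fos* was targeted, shFos and NT kidneys were compared. No kidney gene passed edgeR's adjusted threshold (0 of 14892, 0%), although 4762 had an unadjusted p under 0.05 and DESeq2 called 2732 (18.3%). Of the 6 members tested, each had a log2 fold change below 0, as did 49.7% of all genes, although *Jun* turned to 0.14 after a GC content correction and *Jund* to 0.02 with GC content and length corrected together. *Fos*, *Fosb*, *Junb* and *Jund* were lower with an unadjusted p under 0.05, which held for 14.9% of all genes in that direction. For *Fos*, *Fosb* and *Junb* the groups did not overlap, as for 8.04% of genes in that direction. DESeq2 called *Fos*, *Junb* and *Jund*, and gave no adjusted p for *Fosb*.

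*Fosb*, the closest relative of *Fos* and inducible by the same signals, had the largest difference of the 6 members tested. The NT kidneys measured 1.58, 2.22, 1.43 and 1.35 CPM and the shFos kidneys 0.578, 1.06, 0.358 and 0.538 CPM. The highest shFos kidney, replicate 2, was below the lowest NT kidney. The difference of -1.36 on the log2 scale (SE 0.36, adjusted p = 0.0658 from edgeR) rested on 21 to 33 reads per NT library and 5 to 16 per shFos library. *Fosb* stayed at -1.21 after the GC content correction. Its share of the family was 0.133 to 0.206% in the NT kidneys and 0.0505 to 0.111% in the shFos kidneys.

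*Fosl2* encodes FRA2, a Fos protein without the strong activation domain of FOS. It measured 33.1, 35.2, 28.0 and 51.2 CPM in the NT kidneys and 36.5, 32.5, 25.0 and 24.2 CPM in the shFos kidneys. The groups overlapped, and NT replicate 4, the kidney with the most neutrophil and acute-phase transcripts, was the highest. The log2 fold change of -0.32 (SE 0.20, adjusted p = 0.305 from edgeR) became -0.12 without that library. In share, *Fosl2* stayed at 2.35 ± 0.617% and 2.40 ± 0.351% of the family.

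*Junb* differed most in the Jun group. It measured 55.8, 51.6, 53.5 and 53.4 CPM in the NT kidneys, a coefficient of variation of 3.20%, and 38.9, 47.2, 29.6 and 30.3 CPM in the shFos kidneys. All shFos kidneys were lower than all NT kidneys, with replicates 3 and 4 lowest. The log2 fold change was -0.55 (SE 0.14, adjusted p = 0.065 from edgeR, 0.011 from DESeq2). *Prdx2*, the peroxiredoxin gene whose exon overlaps *Junb*, measured 206 to 269 CPM in the NT kidneys and 216 to 242 CPM in the shFos kidneys, so its groups overlapped.

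*Jund*, the most abundant member, measured 179, 209, 189 and 193 CPM in the NT kidneys and 157, 180, 130 and 133 CPM in the shFos kidneys. The groups overlapped only through shFos replicate 2, which lay just above NT replicate 1. For *Jund*, shFos minus NT gave -0.36 on the log2 scale (SE 0.12, adjusted p = 0.0833 from edgeR, 0.0307 from DESeq2). *Jun* overlapped throughout, at 59.4, 60.8, 46.0 and 49.9 CPM in the NT kidneys and 40.5, 62.0, 59.3 and 53.3 CPM in the shFos kidneys. Its log2 fold change was -0.01 (SE 0.15, adjusted p = 0.98 from edgeR), and shFos kidneys held both the lowest and the highest value.

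GC content moved with these values. In shFos replicates 3 and 4, the trend of counts on exon GC content put a gene of *Jund*'s GC content at -0.34 and -0.30 on the log2 scale, against 0.07 to 0.26 in the NT kidneys and 0.04 and -0.05 in shFos replicates 1 and 2. At *Fos*, with its middling GC content, the same trend stayed within 0.05 of 0. With the trend taken out of each library, the *Jund* fold change was -0.03 (SE 0.08) and that of *Junb* -0.29 (SE 0.12, adjusted p = 0.144 from edgeR). *Fos* kept -0.70 (adjusted p = 0.119), whereas *Jun* turned to 0.14 (adjusted p = 0.587). Of the family, then, the differences of *Fos* and *Fosb* were about as large with the correction as without it, and those of *Junb* and *Jund* were not.

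How many of these passed depended on a single library. Without shFos replicate 1, edgeR called 4173 of 15006 kidney genes (27.8%), among them *Fosb* (log2 -1.34, adjusted p = 0.0419), *Junb* (-0.62, adjusted p = 0.0297) and *Jund* (-0.42, adjusted p = 0.0491), but not *Fos* (adjusted p = 0.0972).

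**Figure D3:**
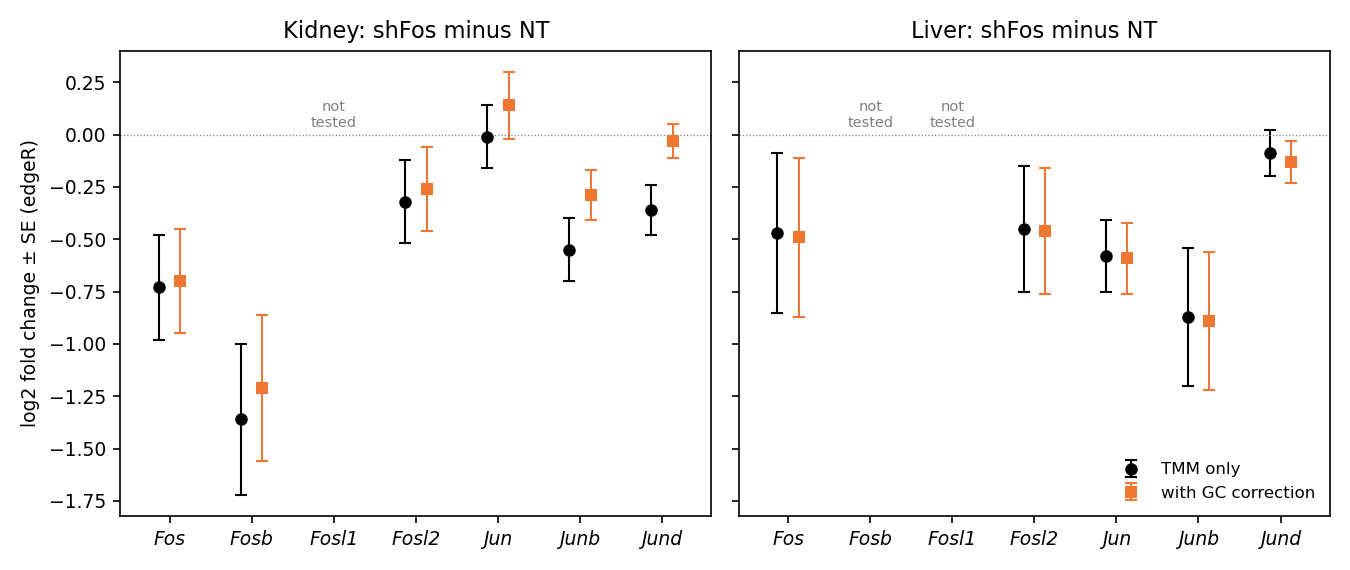
Log2 fold change of each tested member, shFos minus NT, with its standard error, in kidney and liver, with TMM scaling only and with the GC content correction added. In the kidney, *Jund* moves from -0.36 to -0.03 and *Junb* from -0.55 to -0.29, while *Fos* moves from -0.73 to -0.70.

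Within a library, *Fos* was lower relative to *Jun* in every shFos kidney. The log2 ratio of *Fos* to *Jun* per kilobase was -2.71, -3.09, -3.00 and -2.80 in the NT kidneys and -3.54, -3.47, -3.47 and -4.09 in the shFos kidneys, without overlap. Against *Fosl2* it overlapped, at -0.264 to -1.23 in the NT kidneys and -0.625 to -1.79 in the shFos kidneys. The *Fos* share of the family overlapped as well, at 1.15 to 1.82% in the NT kidneys and 0.848 to 1.47% in the shFos kidneys. The ratio of the whole Fos group to the whole Jun group did not separate the treatments, at -4.62 ± 0.266 in the NT and -4.75 ± 0.127 in the shFos kidneys. *Fosl2* made up more of the Fos group than *Fos* did in each kidney. *Jun* relative to *Junb* was highest in shFos replicates 3 and 4, at 0.531 and 0.342, above every NT kidney, whichever length was used. Whether *Jun* exceeded *Junb* depends on that length, since the highest shFos kidney was at 0.184 with the longest transcript and all 4 were at 0.0584 to 1.0 with unweighted reads. The *Jun* share there was 16.4 and 14.8%, against 9.25 to 11.9% in the NT kidneys and 9.85% in shFos replicate 1. These were also the kidneys with the lowest GC trend.

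**Figure D4:**
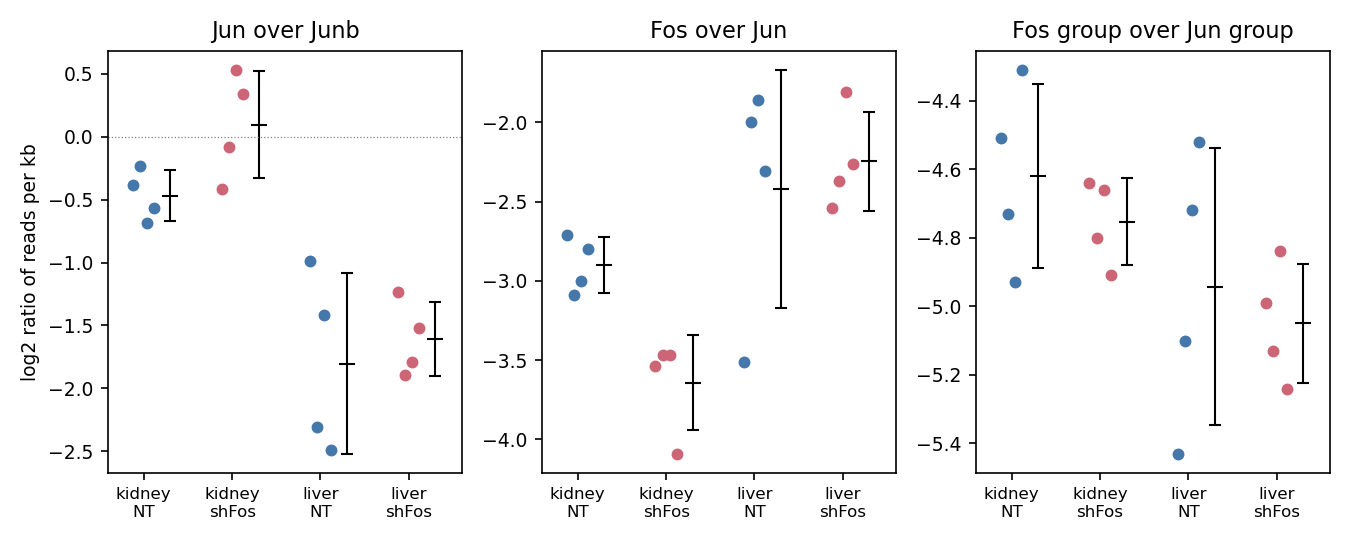
Log2 ratios of *Jun* to *Junb*, *Fos* to *Jun* and the Fos group to the Jun group in each library, with group means and SD as bars. *Fos* to *Jun* separates NT from shFos in the kidney only, and *Jun* to *Junb* separates every kidney from every liver.

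The livers were compared in the same way. No liver gene passed edgeR's adjusted threshold (0 of 13144, 0%), with 897 at an unadjusted p under 0.05 and 38 (0.289%) called by DESeq2, none of them a member. Each of the 5 members tested had a log2 fold change below 0, as did 52.2% of all genes. *Jun* and *Junb* had an unadjusted p under 0.05, as did 3.23% of genes in that direction. No member's groups were apart, whereas 1.52% of genes were lower without overlap.

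*Junb* in the liver measured 24.9, 46.2, 35.0 and 78.2 CPM in the NT libraries (coefficient of variation 50.2%) and 21.6, 28.1, 32.6 and 18.5 CPM in the shFos libraries. NT replicate 4, the liver with the acute-phase and neutrophil transcripts, was highest. The log2 fold change was -0.87 (SE 0.33, adjusted p = 0.703 from edgeR) and -0.50 without that library. *Fosl2* measured 12.1, 10.7, 12.8 and 26.9 CPM in the NT livers and 14.4, 12.1, 10.9 and 8.44 CPM in the shFos livers. Its log2 fold change of -0.45 (SE 0.30, adjusted p = 0.75 from edgeR) became -0.06 without NT replicate 4, the highest of the 8 livers by a wide margin.

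*Jun* in the liver measured 17.3, 12.9, 18.2 and 19.3 CPM in the NT libraries and 12.8, 10.5, 13.1 and 8.91 CPM in the shFos libraries. NT replicate 2 lay among the shFos livers and the other NT livers above all of them. The log2 fold change was -0.58 (SE 0.17, unadjusted p = 0.00774, adjusted p = 0.702 from edgeR) and -0.52 without NT replicate 4. *Jund* was the steadiest member, at 98.6, 88.3, 97.1 and 86.3 CPM in the NT livers and 97.7, 86.5, 84.7 and 78.9 CPM in the shFos livers (log2 fold change -0.09, SE 0.11, adjusted p = 0.84 from edgeR). The log2 ratio of *Fos* to *Jun*, which separated the kidney groups, was -3.51, -2.0, -1.86 and -2.31 in the NT livers and -2.54, -2.37, -1.81 and -2.26 in the shFos livers, with overlap. *Fosb* in the liver was too sparse to be tested, with means of 0.361 ± 0.312 and 0.391 ± 0.119 CPM.

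Whether the response differed between tissues was tested by the interaction, the liver change minus the kidney change. No gene passed in edgeR (0 of 15421, 0%), with 2478 (16.1%) at an unadjusted p under 0.05 and 341 called by DESeq2. *Jun* was the member nearest to the threshold, with an interaction of -0.56 (SE 0.23, unadjusted p = 0.0261, adjusted p = 0.254 from edgeR). Those of *Fos* (0.27, SE 0.47) and *Fosb* (1.46, SE 0.76) had adjusted p of 0.825 and 0.353. The difference between the *Fos* changes in kidney and liver was therefore within its error, although only the kidney groups were apart.

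How the members moved together over the 8 libraries of a tissue was examined for 25 pairs, 15 for kidney and 10 for liver, by exact permutation tests with adjustment over all of them. In the kidney, 3 pairs passed by Pearson's r, all among *Fosb*, *Junb* and *Jund*, while 0 passed by Spearman's rho or without the 2 libraries farthest from the median. Because the NT and shFos kidneys form separate clusters for *Fosb* and *Junb*, no pooled coefficient is given for them, and within a treatment there are only 4 libraries, too few for a test. With each treatment's mean removed, Pearson's r was 0.863 for *Junb* with *Jund*, 0.852 for *Fosb* with *Jund* and 0.729 for *Fosb* with *Junb*, and no pair passed (exact permutation within treatments, smallest adjusted p = 0.564). *Fos* with *Jun*, at 0.731 (exact permutation, adjusted p = 0.586), was as high as the last of these. *Jun* showed no relation of that kind to its Jun group partners in the kidney, at -0.007 with *Junb* and 0.032 with *Jund*. With the GC trend removed and treatments pooled, no pair passed either.

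In the liver, no pair passed. The largest value with treatment means removed was 0.676 for *Fosl2* with *Junb* (exact permutation, adjusted p = 0.586). It rested on NT replicate 4, without which the pooled r was 0.144. With all 8 livers, the pooled r of 0.735 (exact permutation, adjusted p over 25 pairs = 0.183, Spearman's rho 0.310) turned to -0.746 when the 2 libraries farthest from the *Fosl2* median were left out. *Junb* with *Jund* had the highest centred value in the kidney, 0.863, but -0.467 in the liver.

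Among 12001 genes expressed in both tissues, those most like *Fos* over the libraries, by the mean of the kidney and liver r with treatment means removed (8 libraries each), were *Klhl28* (0.874), *Galnt6* (0.842), *Nck2* (0.799), *Cenpc1* (0.793) and *Pygb* (0.78). *Jun* ranked 234 of them (0.544), *Egr1*, another immediate early gene, 274 (0.53) and *Junb* 467 (0.469), while *Ier2* ranked 1180 (0.355), *Fosl2* 2864 (0.189) and *Jund* 5802 (-0.002). Those most like *Junb* were *Fabp4* (0.906), *Nrg4* (0.902), *Il1rn* (0.87), *Fam129b* (0.864) and *Impdh1* (0.859), with the immediate early genes *Ier2* at rank 56 (0.721) and *Egr1* at 917 (0.431) and the members *Fosl2* at 298 (0.581), *Fos* at 704 (0.469), *Jund* at 2966 (0.198) and *Jun* at 3819 (0.13). For *Jun* they were *Surf6* (0.833), *Podxl* (0.83), *Rasl11a* (0.792), *Tnfrsf11b* (0.791) and *Cystm1* (0.788). *Podxl*, a podocyte gene, belongs to a marker list whose sum was 266 to 403 CPM in the NT kidneys and 345, 654, 720 and 629 CPM in the shFos kidneys. The part of cell composition in the *Jun* values was not tested. These coefficients describe 16 libraries and carry no p.

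Other genes of the AP-1 pathway were described by lists, none of whose genes passed edgeR's adjusted threshold in either tissue. Counts below are of log2 fold changes above and below 0, beside medians over all genes of 0.00 in the kidney and -0.01 in the liver. Of immediate early genes outside AP-1, 10 of 12 in the kidney and 8 of 9 in the liver were lower in the shFos group, with medians of -0.45 and -0.55. *Ier2*, a nuclear regulator induced with *Fos*, went from 18.3 to 12.1 CPM in the kidney (log2 -0.60, adjusted p = 0.065 from edgeR, 0.000827 from DESeq2) and from 19.7 to 13.4 CPM in the liver (log2 -0.55, adjusted p = 0.702 from edgeR). Its groups were apart in both tissues. *Btg2*, an antiproliferative gene, went from 53.0 to 43.0 CPM in the kidney, and *Ier3* from 6.27 to 2.04 CPM in the liver (log2 -1.62, adjusted p = 0.685 from edgeR, 0.0118 from DESeq2).

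Genes upstream of the family were described in the same way. Of 18 kinases that act on *Fos* and *Jun*, 11 were higher and 7 lower in the shFos kidneys (median 0.13), and DESeq2 called 3 higher and 1 lower, where it called 18.3% of all kidney genes. *Rps6ka3*, the RSK2 kinase, went from 54.7 to 82.8 CPM (log2 0.60) and *Map2k4*, a kinase of the JNK cascade, from 52.4 to 63.5 CPM (log2 0.28). In the liver, 9 of 17 kinases were higher (median 0.05), with *Map2k3* at -0.20 and *Mapk9* at 0.15. Of 12 transcription factors of the *Fos* and *Jun* promoters, 8 were higher in each tissue, with medians of 0.09 and 0.06. *Elk1*, a ternary complex factor that works with SRF, had a log2 fold change of 0.27 and *Atf1*, a CREB relative, 0.27 in the kidney. In the liver *Elk3* was at 0.41 and *Srf* at -0.22. The phosphatases that switch off MAP kinases had 5 of 8 higher in the kidney (median 0.07), with *Dusp16* at 0.36 (adjusted p = 0.0329 from DESeq2) and *Dusp6* at 0.20. In the liver, 6 of 7 were lower (median -0.32, and -0.50 without NT replicate 4), with *Dusp4* at -1.08 and *Dusp6*, the ERK phosphatase, going from 52.5 to 30.1 CPM.

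AP-1 partners outside the 2 families, the ATF and BATF proteins and JDP2, had 4 of 7 genes higher in the kidney (median 0.07) and 6 of 7 lower in the liver (median -0.24). *Batf3* was at -0.73 in the kidney and -0.64 in the liver, *Atf2*, a JUN partner at CREs, at 0.22 in the kidney (-0.01 with GC content and length corrected), and *Jdp2*, a repressor, at -0.24 in the liver. Maf factors, a further leucine zipper group, had 3 of 5 lower in the kidney and 4 of 5 in the liver (medians -0.19 and -0.36). *Mafk* was at -0.34 and -0.37 in the respective tissues, *Maff* at -0.53 in the kidney and *Maf* at -0.36 in the liver. Known AP-1 target genes were evenly divided in the kidney, 9 higher and 9 lower (median -0.02). DESeq2 called *Gadd45a* (log2 -0.40) and *Gadd45b* (log2 -0.59), stress-response genes, both lower, which is 2 of 18 where 18.3% of all genes were called. In the liver, 12 of 16 targets were lower (median -0.29), with *Mmp14*, a membrane metalloproteinase, at -0.52.

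Circadian clock genes and acute-phase genes were examined too. Of 13 clock genes in the kidney, 9 were lower and 4 higher (median -0.76), and DESeq2 called 6 lower and 3 higher (18.3% of all genes, 1180 lower and 1552 higher). *Per3* went from 24.6 to 7.46 CPM (log2 -1.72) and *Npas2* from 15.2 to 31.9 CPM (log2 1.07). *Arntl*, the gene of the clock activator BMAL1, measured 26.7, 14, 24.8 and 17.2 CPM in the NT kidneys. In the shFos kidneys it measured 43.4, 38.8, 49.1 and 41.5 CPM, so its kidney groups did not overlap. *Arntl* was named after its values were seen, and the share of all genes higher without overlap is not given. In the liver, 8 of 13 clock genes were lower (median -0.19), with *Nr1d1* at -2.54 and *Nr1d2* at -1.08. *Arntl* there measured 33.1, 11.1, 28.1 and 21.6 CPM in the NT libraries and 31.9, 36.1, 37.2 and 31.8 CPM in the shFos libraries. Of acute-phase genes, 3 of 5 were lower in the kidney (median -0.63) with *Lcn2* at -1.39 and *Hp* at -1.37, and 10 of 10 in the liver (median -1.54). Each rested on 1 library: without kidney NT replicate 4 the kidney median was 0.22, and without liver NT replicate 4 the liver median was -0.30. The part of clock phase, inflammation or time of collection in the differences of the family was not tested.

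Markers of cell types were summed in each library. The kidney tubule markers summed to 9570 to 13200 CPM in the NT kidneys and 13600 to 15800 CPM in the shFos kidneys, without overlap. They did not move as a set: 4 of the 6 were higher and 2 lower in the shFos kidneys. *Lrp2* went from 1910 to 3280 CPM (log2 0.78) and *Slc12a3* from 1780 to 1200 CPM (log2 -0.56). Of the neutrophil markers, 3 of 3 tested were lower in the shFos kidneys, with *Csf3r* at -0.84 (called by DESeq2, adjusted p = 0.0124), and their sums were 8.68 to 30.4 and 6.37 to 10.9 CPM. The endothelial markers summed to 229 to 301 CPM in the NT kidneys and 320 to 385 CPM in the shFos kidneys, without overlap, while macrophage sums overlapped in both tissues (268 to 729 and 405 to 565 CPM in the kidney, 244 to 1210 and 331 to 587 CPM in the liver). Fibroblast and stellate cell sums overlapped in both tissues too, at 358 to 482 and 351 to 449 CPM in the kidney. Lymphocyte sums were 12.9 to 251 CPM in the NT kidneys and 189 to 298 CPM in the shFos kidneys. Of 5 erythroid markers, the 4 globin genes were at 0 in every library. The part of these cells in the values of the family was not tested.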

How the data were processed

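The deposited files held raw read counts per gene symbol, 1 table per library. The submitters' processing notes name Trimmomatic 0.39, HISAT2 2.2.1 and HTSeq 0.12.4 with the mm10 genome. The study's methods state counting without strand (-s no), and the annotation version was not given in the sources used here. Reads assigned to no gene (13.4 to 26.7% of each library) or to several (1.84 to 2.64%) were left out of library sizes and tests. Exon length, GC content and overlaps came from GENCODE M21, which matched 24534 of 24984 symbols (98.2%), and promoters from RefSeq (GRCm38.p6).

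Counts were filtered by expression (minimum count 10), scaled by TMM within each comparison and tested with edgeR 4.0.16 (R 4.3.3, limma 3.58.1; quasi-likelihood F test, robust dispersion) over all genes, with Benjamini-Hochberg adjustment and a threshold of 0.05. *Fosl1* did not pass the filter in either tissue, nor *Fosb* in the liver. DESeq2 1.42.0 was an alternative, as were other scalings and filters, GC content and length corrections (lowess offset, span 0.3), a fit of all libraries, the replicate number as a block and leaving out each library. Scaling by library size only, and GC correction of the correlations, were added after the data were seen. Correlations used log2 CPM with a prior count of 2, and exact permutations over 40320 pairings of 8 libraries, or 576 within treatments. The edgeR fit of the kidney comparison was also run on simulated counts. The other fits, the corrections and the correlations were not.

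Deviations from the group means of same-numbered NT kidneys and NT livers had r of 0.125, 0.368, 0.4 and 0.362. For shFos kidneys with shFos livers r was 0.04 to 0.156. For NT with shFos libraries of a tissue it was -0.174 to 0.116 in the kidney and -0.259 to 0.039 in the liver. Libraries with different numbers were not compared, so these values do not settle which libraries share an animal. The block took equal numbers as pairs. Reported fits have no block and ignore any pairing of the tissues. The members and the gene lists were chosen with earlier results of these data known. Genes named outside the family include those that overlap a member and the 2 of each list with the smallest p in each tissue. The others are the 5 most like *Fos*, *Junb* and *Jun*, and *Arntl*, *Egr1* and *Ier2* by choice after their values were seen. A further gene that this rule would name is not reported here. Intervals and floors cover counting error only.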

Additional observations from a re-analysis of the deposited data

Results flagged for a closer look

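In groups of 4 libraries, 76 sets of member levels, shares and ratios were examined for a library far from the other 3, and 9 had one. The rule flags about 1 in 20 sets of independent, normal values. These sets share genes and libraries, and some hold only a few reads, so their number is not compared with that rate. In the NT livers, *Fosl2* stood at 26.9 CPM in replicate 4 (others 10.7 to 12.8) and its share at 2.9% of the family (others 1.4 to 1.62%). This was the liver with the acute-phase and neutrophil transcripts, and their part in the *Fosl2* value was not tested. In the shFos kidneys, the *Fosl2* share was 2.92% in replicate 1 (others 2.2 to 2.27%), and the log2 ratio of *Fos* to *Jun* was -4.09 in replicate 4 (others -3.54 to -3.47). In the shFos livers, the *Fos* share was 1.64% in replicate 3 (others 0.92 to 0.98%). The other 4 concerned *Fosl1* and rested on 1 or 2 reads. Its level was 0.131 CPM in an NT kidney (others 0.0645 to 0.0674) and 0.0577 CPM in an NT liver (others 0), and its shares in those libraries were 0.0412% (others 0.0192 to 0.0206%) and 0.0358% (others 0).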

How the results depend on the processing

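The number of kidney genes called was 0 with edgeR, 2732 with DESeq2, 987 in a fit of all 16 libraries and 0 to 4173 with 1 library left out (4173 without shFos replicate 1, 3 without NT replicate 4). In the liver DESeq2 called 38 genes, and for the interaction 341, with 0 to 1230 when a library was left out (1230 without kidney shFos replicate 1). With the replicate block, the counts were 0 in the kidney, 0 in the liver, 0 for the interaction and 9332 between tissues (8936 without it), and the block changed no call of a member. The count of kidney pairs was 0 with Spearman's rho, treatment means removed, GC content corrected or the 2 farthest libraries left out, and 0 to 3 with 1 library left out (0 without shFos replicate 1, 2 or 4). That of the liver was 0 to 1 (1 without NT replicate 1), and *Fosl2* with *Junb* there reversed to -0.746 without the 2 farthest.

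Some log2 fold changes turned. In the kidney, *Jun* was 0.01 with no filter, 0.14 with GC content corrected, 0.15 with GC content and length, and -0.08 to 0.07 with 1 library left out, while GC content and length correction gave *Jund* 0.02 and *Atf2* -0.01. In the interaction, *Jund* was -0.11 and -0.18 with the 2 corrections, and with 1 library left out *Fosl2* ranged from -0.36 to 0.29 and *Junb* from -0.52 to 0.07, the upper values without liver NT replicate 4. Between tissues, *Fos* was -0.07 with GC content corrected, -0.17 in the shFos libraries and -0.16 to 0.32 with 1 library left out. *Jund* was -0.72 and -0.6 with the 2 corrections and -0.22 in the shFos libraries, *Fosl2* -0.05 with GC content and length, and *Junb* 0.25 by library size only. The cause was not tested.

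Of the medians of gene lists, 17 moved and 379 did not. In the kidney, the Jun group was -0.03 with GC content corrected and 0.02 with GC content and length, and where they moved Maf factors were at -0.30 to -0.07, the kinases at 0.03 to 0.08 and the promoter factors at -0.01 to 0.03, while acute-phase genes were 0.22 without NT replicate 4. Maf factors in the liver were -0.20 without NT replicate 3.

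Shares and ratios depend on how reads are weighted by length. Unweighted reads gave log2 Fos group to Jun group ratios of -2.8, -2.85, -3.14 and -3.19 (kidney NT, kidney shFos, liver NT, liver shFos), *Jund* shares of 56.0, 54.7, 54.3 and 63.6%, and a *Junb* share of 15.6% in the NT kidneys. The mean log2 ratio of *Jun* to *Junb* in the shFos kidneys was 0.0956 per kilobase of merged exon, 0.566 unweighted and -0.251 with the longest transcript. The longest transcript in place of merged exons gave ratios of -4.24, -4.35 and -4.69 (kidney NT, kidney shFos, liver shFos), *Jund* shares of 67.6 and 67.4% and *Junb* shares of 17.4 and 15.0% (kidney NT, kidney shFos). Depth limits *Fosl1* in both tissues and *Fosb* in the liver, where a library held at most 12 reads.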
